A study of Mus musculus with 6 samples.

Results

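Transcripts of 7 drug efflux pumps and organic anion carriers were followed in the intestine of mice that lack SHP. The 7 genes are Abcb1a, Abcb1b, Abcg2, Abcc1, Abcc4, Slco2a1 and Slco2b1. They were taken by gene symbol from the 23284 genes of the count files, with earlier results of these data known, among them that Abcg2 differs between WT libraries. SHP, the small heterodimer partner encoded by Nr0b2, is an orphan nuclear receptor that represses transcription. RNA came from jejunum and ileum of SHP-KO mice (3 libraries) and wild-type (WT) mice (3 libraries). All animals were males of 8 weeks that went without food overnight and were then refed for 6 h. Strain background, the design of the SHP allele and the share of each segment in a library are not given in the labels, nor is it stated that each library is a separate animal. Most p-values below are set against the scatter among libraries of a genotype, and that scatter may be technical. The edgeR exact test is set against an assumed variation instead, and the basis of the authors' deposited p-values was not examined.

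ABC transporters use ATP to pump substrates out of cells, and SLCO carriers, the organic anion transporting polypeptides, move organic anions across membranes without ATP. In enterocytes, the P-glycoproteins encoded by Abcb1a and Abcb1b and the breast cancer resistance protein encoded by Abcg2 sit in the apical membrane and return drugs, plant compounds and, for Abcg2, urate to the gut lumen. Abcc1 and Abcc4 encode multidrug resistance proteins that export glutathione conjugates such as leukotriene C4 (Abcc1) and prostaglandins and cyclic nucleotides (Abcc4). Slco2a1 encodes the prostaglandin transporter, and Slco2b1 encodes a carrier of sulfated steroids and many drugs.

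In the files' mm9 annotation, Abcb1a lies on chromosome 5 from 8660092 to 8748570 and Abcb1b follows on the same strand from 8798147 to 8866314. Abcg2 lies on chromosome 6 from 58546666 to 58642445. Abcc1 lies on chromosome 16 from 14361651 to 14474971, and Abcc4 on chromosome 14 from 118881914 to 119105441. Slco2a1 lies on chromosome 9 from 102910819 to 102990179, and Slco2b1 on chromosome 7 from 106806314 to 106859850. Abcc4 and Slco2b1 are on the minus strand and the other 5 genes on the plus strand. Reads were counted over all exons of a gene, and no exon base of the 7 genes overlapped an exon of another gene in that annotation.

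The paired P-glycoprotein genes are close copies, which bears on how their reads were counted, because reads with several alignments were left out. Their coding sequences are both 3831 bases long in GENCODE vM21 transcripts, with 88.0% identity over 3822 aligned bases and a longest identical run of 338 bases. Of the 4898 windows of 100 bases in the Abcb1a transcript, 367 (7.49%) also occur in Abcb1b, and 367 of 4207 (8.72%) in the other direction. A stretch that no read of this length could assign is shown first, 5′ to 3′, with capitals on the codons of the first ATP-binding (Walker A) motif. It spans coding positions 1211 to 1310 of Abcb1a and 1220 to 1319 of Abcb1b, counted from the start codon.
Abcb1a shared stretch: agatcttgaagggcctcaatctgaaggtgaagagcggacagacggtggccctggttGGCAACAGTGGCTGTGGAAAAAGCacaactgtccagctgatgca
Abcb1b shared stretch: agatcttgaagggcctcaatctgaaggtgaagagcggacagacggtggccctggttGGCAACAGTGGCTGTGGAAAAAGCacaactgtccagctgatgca
The least alike stretch of the same length differs at 32 bases, which are in capitals, and spans positions 1873 to 1972 of Abcb1a and 1882 to 1981 of Abcb1b. Reads from such stretches tell the copies apart. Of the other 5 genes, Slco2b1 shares 261 of 4270 windows (6.11%) with Gm15635, and the rest share 0 with any other gene. Transcripts were compared without their genomic positions. Whether reads of these Slco2b1 windows had several alignments was not examined.
Abcb1a least alike stretch: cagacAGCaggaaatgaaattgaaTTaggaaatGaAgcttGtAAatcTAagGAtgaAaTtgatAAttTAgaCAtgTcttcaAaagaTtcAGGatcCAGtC
Abcb1b least alike stretch: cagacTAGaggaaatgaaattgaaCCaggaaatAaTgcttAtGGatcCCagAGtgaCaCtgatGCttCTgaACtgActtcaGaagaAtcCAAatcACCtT

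Abcg2, the gene with the widest spread between WT libraries among the called genes of the set, has 3 start sites in RefSeq. The mm9 annotation used for counting gives Abcg2 16 exon intervals with 2491 bases. Which of the 3 starts it includes was not examined, so the count may not cover all of them. The promoters are printed 5′ to 3′ on the plus strand in GRCm38.p6, each with 250 bases before and 50 bases after the start. Capitals mark AGGTCA or its reverse complement TGACCT, the half-site bound by many nuclear receptors.
Abcg2 promoter, chr6:58584283-58584582: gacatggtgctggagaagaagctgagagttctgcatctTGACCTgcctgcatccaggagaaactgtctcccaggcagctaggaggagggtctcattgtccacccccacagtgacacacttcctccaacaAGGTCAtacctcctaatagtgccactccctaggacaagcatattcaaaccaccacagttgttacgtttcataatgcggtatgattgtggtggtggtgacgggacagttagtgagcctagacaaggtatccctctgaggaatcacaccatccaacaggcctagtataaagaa
Abcg2 promoter, chr6:58596422-58596721: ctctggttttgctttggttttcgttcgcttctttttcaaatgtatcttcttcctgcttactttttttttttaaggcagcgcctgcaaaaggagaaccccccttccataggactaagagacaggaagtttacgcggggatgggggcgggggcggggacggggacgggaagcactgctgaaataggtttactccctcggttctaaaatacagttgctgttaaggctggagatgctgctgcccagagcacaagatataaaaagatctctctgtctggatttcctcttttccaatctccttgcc
Abcg2 promoter, chr6:58640296-58640595: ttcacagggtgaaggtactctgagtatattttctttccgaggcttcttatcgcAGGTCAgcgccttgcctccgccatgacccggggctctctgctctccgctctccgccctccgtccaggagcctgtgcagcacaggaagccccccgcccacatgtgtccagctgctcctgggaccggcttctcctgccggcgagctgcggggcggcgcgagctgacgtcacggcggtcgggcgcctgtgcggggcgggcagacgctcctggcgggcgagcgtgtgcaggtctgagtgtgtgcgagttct
The first of these holds 2 matches, the second holds 0 and the third holds 1. Matches on either strand occurred in 5340 of 32851 RefSeq mouse promoters of this length (16.3%), and in 2 of the 11 promoters listed for 6 of the 7 genes, both of them Abcg2 promoters. A match is a stretch of letters, not a shown binding site.

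Library totals were 7956528 to 9289543 counts in SHP-KO and 11265437 to 13511800 counts in WT. Across 12106 tested genes, Pearson's r was 0.9910 to 0.9948 between libraries of 1 genotype and 0.9280 to 0.9294 across genotypes, a description over genes. Nr0b2 itself had 1, 0 and 0 counts in SHP-KO and 31, 14 and 23 counts in WT (adjusted p = 4.5e-10 in the edgeR quasi-likelihood test).

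Of the 7 genes, 6 passed the filter on low counts, and 4 of these were called at an adjusted p under 0.05 by the edgeR quasi-likelihood test. Abcb1a was higher in SHP-KO, and Abcg2, Slco2a1 and Slco2b1 were lower, while Abcc1 and Abcc4 were not called. The genotypes differed widely in this tissue, so that 70.6% of all tested genes were called, 35.2% higher and 35.4% lower. The share called among the transporters was therefore near the background. Library values of the genotypes did not overlap for 5 of the 6 genes, against 72.0% of all tested genes. The median log2 fold change was -0.23 over the 6 genes and -0.01 over all tested genes. A fall of at least 2-fold was called for Abcg2 and Slco2b1, and for 8.15% of all tested genes. In bulk RNA, fewer cells of a type and less RNA per cell cannot be told apart.

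**Figure D1:**
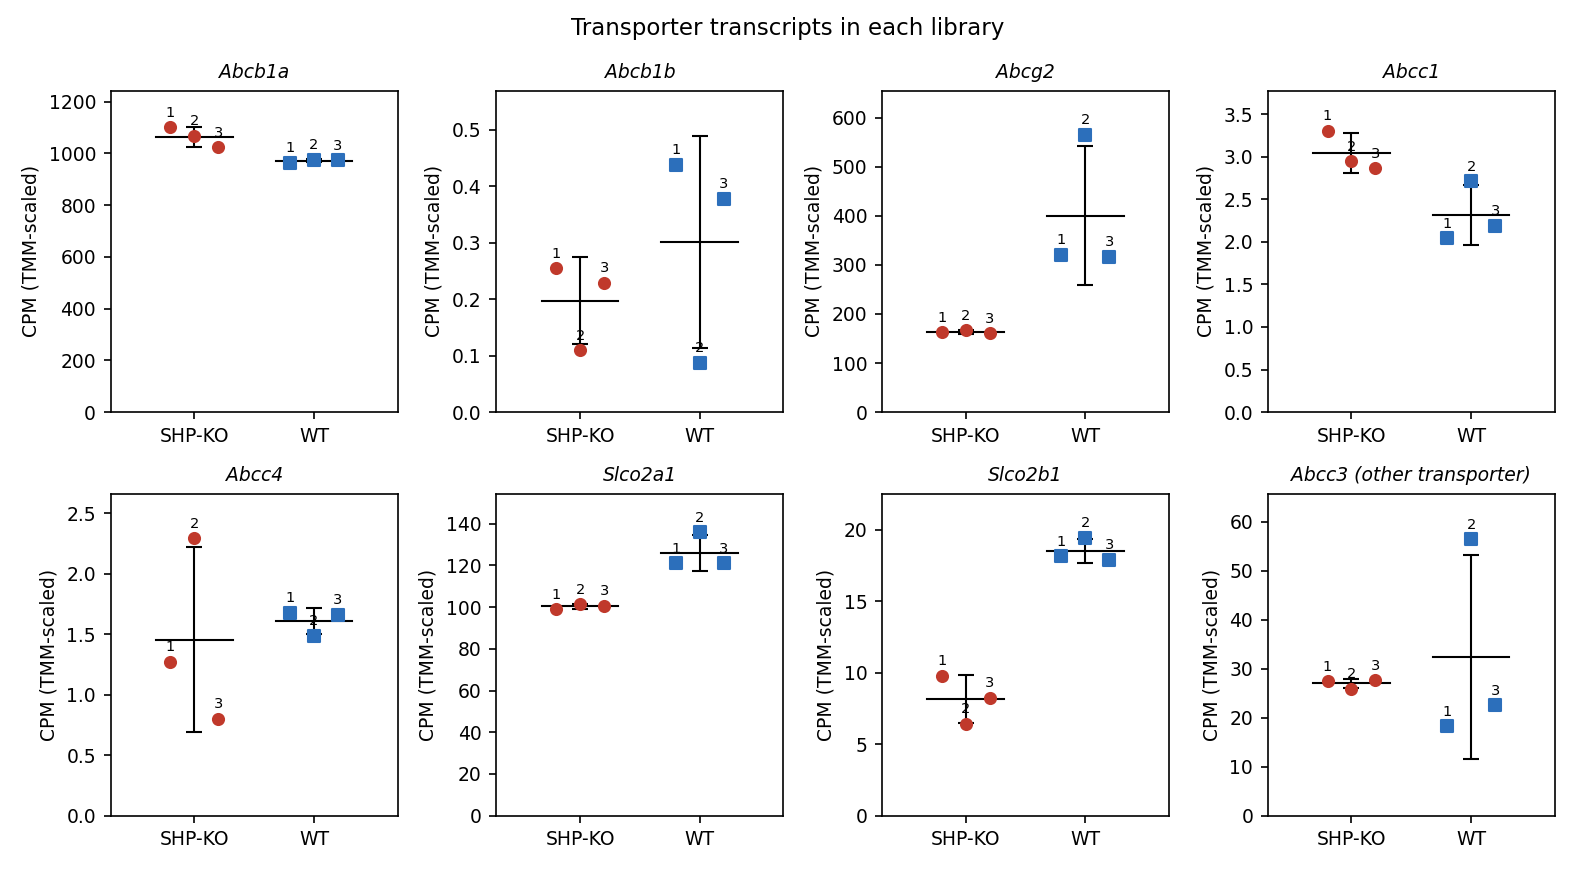
CPM (counts scaled to library size by TMM, linear axis from 0) of the 7 transporter genes and Abcc3 in each library, SHP-KO in red circles and WT in blue squares, numbered by replicate, with lines for the mean and bars for 1 SD (n = 3). WT replicate 2 stands above the other WT libraries for Abcg2 (565 CPM) and Abcc3 (56.4 CPM), while its Abcb1a level of 974.7 CPM lies with theirs.

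Abcb1a, the main P-glycoprotein gene of mouse intestine, was the most abundant of the set per length in both genotypes. It held 8659, 9772 and 8935 counts in SHP-KO and 13219, 11131 and 12892 counts in WT. Scaled for depth to CPM, the count relative to a library total of a standard size, these are 1101, 1067 and 1023 CPM in SHP-KO and 964.3, 974.7 and 973.2 CPM in WT. Every SHP-KO library lay above every WT library, and the WT libraries lay within 1.01-fold of each other. The mean was 1064 ± 39.2 CPM in SHP-KO and 970.7 ± 5.62 CPM in WT (SD, n = 3 each). The rise was small, at a log2 fold change of 0.13 ± 0.026 (SE, 95% interval 0.081 to 0.18), or 1.10-fold, with an adjusted p of 4.3e-06 in the edgeR quasi-likelihood test. In the edgeR exact test, with the biological coefficient of variation assumed to be 0.2, the call was lost (adjusted p = 0.72), at the same log2 fold change of 0.13. In the edgeR quasi-likelihood test it was 0.093 with no scaling factors (adjusted p = 0.00082) and 0.071 with no filter on low counts (adjusted p = 0.012). The last value lies below the 95% interval, which does not cover the choice of filter and scaling.

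Abcb1b, the second P-glycoprotein gene, was close to absent. SHP-KO libraries held 2, 1 and 2 counts and WT libraries held 6, 1 and 5, too few for the filter. The level was 0.197 ± 0.077 CPM in SHP-KO and 0.301 ± 0.187 CPM in WT (SD, n = 3 each). The rate ratio of the summed counts, 5 in SHP-KO and 12 in WT, was 0.621, with an exact 95% interval of 0.171 to 1.89, which covers counting error only. Abcb1b made up 0.0231%, 0.0102% and 0.0224% of the reads of the pair in SHP-KO and 0.0454%, 0.00898% and 0.0388% in WT. These shares overlapped between genotypes, and their means of 0.0186% in SHP-KO and 0.0310% in WT gave p = 0.4 in a two-sided exact permutation test (n = 3 each), whose smallest possible p is 0.1. Since the copies lose near equal shares of their windows to the identical stretches, the P-glycoprotein reads of these libraries were nearly all Abcb1a.

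Abcg2, the apical exporter of urate and sulfate conjugates, was lower in SHP-KO, and its WT libraries lay far apart. SHP-KO libraries held 1280, 1530 and 1403 counts and WT libraries held 4391, 6448 and 4189 counts. The levels were 163, 167 and 161 CPM in SHP-KO, within 1.04-fold of each other, and 320.3, 565 and 316 CPM in WT. The counting interval of WT replicate 2 (551 to 579 CPM, exact 95% Poisson) was far from those of WT replicate 1 (311 to 330 CPM) and WT replicate 3 (307 to 326 CPM). WT replicate 2 was 1.79-fold above WT replicate 3, yet the lowest WT library was still well above the highest SHP-KO library.

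The Abcg2 mean was 163 ± 3.35 CPM in SHP-KO and 400.4 ± 142 CPM in WT (SD, n = 3 each). The SD of log2 CPM between WT libraries, 0.477, stood at percentile 97.0 of all tested genes, and that between SHP-KO libraries at percentile 10.3. The log2 fold change was -1.28 ± 0.31 (SE, 95% interval -2.14 to -0.43), a 2.44-fold fall with an adjusted p of 0.020 in the edgeR quasi-likelihood test. Without WT replicate 2 the log2 fold change was -0.97, and the adjusted p was 5.6e-72. Without WT replicate 1 it was -1.43 (adjusted p = 0.030) and without WT replicate 3 it was -1.44 (adjusted p = 0.027), both in the edgeR quasi-likelihood test. Leaving out SHP-KO replicate 1, 2 or 3 ended the call, with adjusted p of 0.068, 0.069 and 0.072, while the log2 fold change stayed at -1.28, -1.30 and -1.27. The sign was thus the same in every one of these fits, and the size of the fall rested in part on WT replicate 2. Over all libraries the adjusted p varied with the method. It was 3.5e-05 in DESeq2, 3.8e-11 in limma-voom and 3.8e-14 in the edgeR quasi-likelihood test without its robust setting. With the replicate number as a block in the robust edgeR quasi-likelihood test it was 0.042. No library was left out under those methods.

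**Figure D2:**
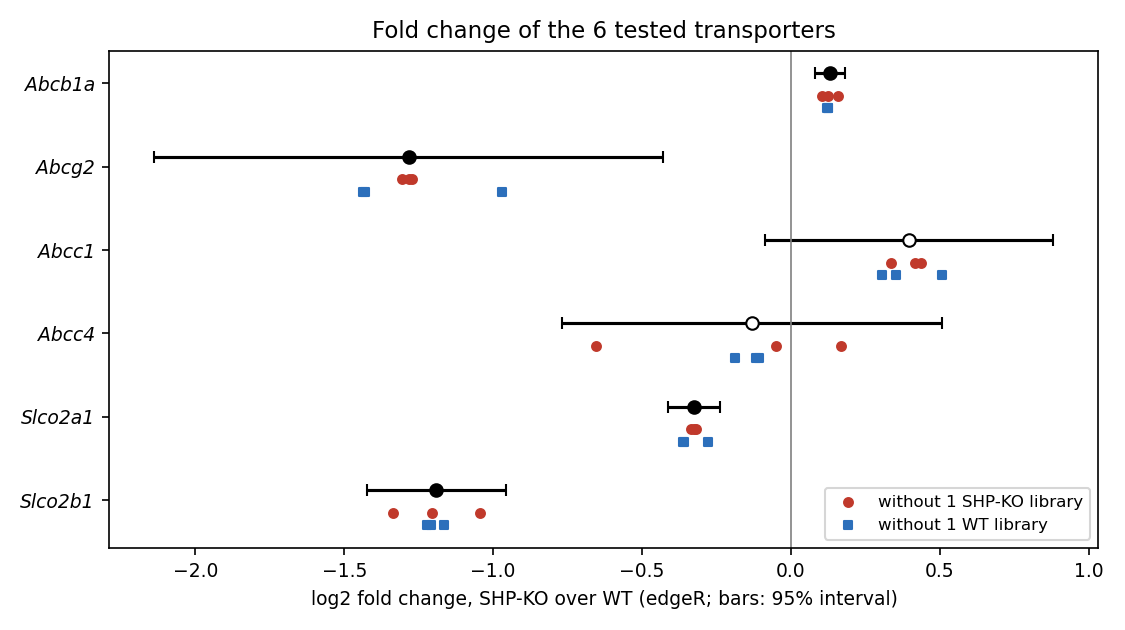
Log2 fold change of SHP-KO over WT for the 6 tested transporter genes (black, edgeR, bars for the 95% interval, filled where the adjusted p was under 0.05) and the same value after leaving out 1 SHP-KO library (red circles) or 1 WT library (blue squares). Abcg2 has the widest interval (-2.14 to -0.43), its value without WT replicate 2 being -0.97, and Abcc4 is the gene whose sign turned.

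WT replicate 2 did not stand apart in most of its transcripts, and the genes in which it did were looked up after the Abcg2 values had been seen. Over 7427 genes with a mean of at least 10 CPM, its log2 CPM was compared with the mean of WT replicates 1 and 3. Abcc3 was highest, at 1.47 above the other WT libraries, and Abcg2 followed at 0.83. The third was Rint1 at 0.50, just under the 0.5 used here to call a gene far. Only Abcc3 and Abcg2 were thus at least 0.5 higher in WT replicate 2, and 3 genes (Tbp, Bod1l and Slc16a6) were at least 0.5 lower. WT replicate 1 and WT replicate 3 each had 2 genes higher by that distance, with 4 and 3 genes lower. Among genes down to 1 CPM, where counting error is larger, 56 of 11828 other genes lay as far above as Abcg2 in WT replicate 2. These are descriptions of 1 library, with no test.

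Abcc3, which encodes the multidrug resistance protein that exports glucuronides and bile acids across the basolateral membrane, is an ABC transporter too. It held 216, 237 and 242 counts in SHP-KO and 251, 644 and 298 counts in WT. The levels were 27.5, 25.9 and 27.7 CPM in SHP-KO and 18.3, 56.4 and 22.5 CPM in WT. All SHP-KO libraries lay above WT replicates 1 and 3 and below WT replicate 2. The log2 fold change was -0.23 over all libraries (adjusted p = 0.74, edgeR quasi-likelihood test) and 0.40 without WT replicate 2 (adjusted p = 4.05e-05), so 1 library set its sign. Since Abcc3 and Abcg2 were singled out for their high values in WT replicate 2, a higher fold change without that library follows from the choice, and the adjusted p without it supports nothing.

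**Figure D3:**
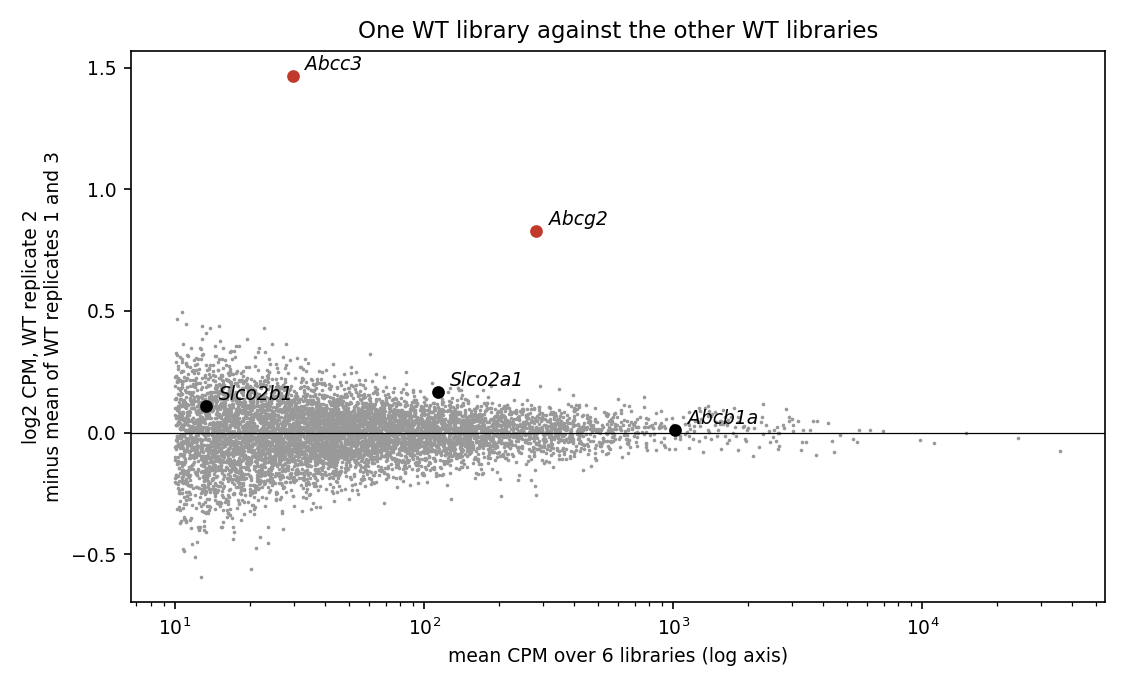
Log2 CPM of WT replicate 2 minus the mean of WT replicates 1 and 3 (vertical) against mean CPM over 6 libraries (horizontal, log axis) for 7427 genes with a mean of at least 10 CPM. Abcc3 (1.47) and Abcg2 (0.83) in red lie above all other points, and Abcb1a, Slco2a1 and Slco2b1 in black lie within the cloud.

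Abcc1, the exporter of leukotriene C4 and other glutathione conjugates, was a low transcript and was not called. It had 26, 27 and 25 counts in SHP-KO and 28, 31 and 29 counts in WT, or 3.30, 2.95 and 2.86 CPM in SHP-KO and 2.04, 2.71 and 2.19 CPM in WT. The libraries of the genotypes did not overlap, with means of 3.04 ± 0.23 CPM in SHP-KO and 2.32 ± 0.35 CPM in WT (SD, n = 3 each). The log2 fold change of 0.40 ± 0.24 (SE) had a 95% interval of -0.086 to 0.88 and an adjusted p of 0.14 in the edgeR quasi-likelihood test, so a difference was not detectable at this depth.

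Abcc4, the exporter of prostaglandins and cyclic nucleotides, was the least even between SHP-KO libraries. It had 10, 21 and 7 counts in SHP-KO and 23, 17 and 22 counts in WT, or 1.27, 2.29 and 0.80 CPM in SHP-KO and 1.68, 1.49 and 1.66 CPM in WT. The WT libraries fell inside the range of the SHP-KO libraries, whose SD of log2 CPM stood at percentile 98.1 of all tested genes, at any level. The exact 95% Poisson intervals of SHP-KO replicates 1, 2 and 3 overlapped (0.61 to 2.34, 1.42 to 3.51 and 0.32 to 1.65 CPM). Overlap of such intervals is not a test, and whether counting error alone gives this spread was not tested. The log2 fold change was -0.13 ± 0.32 (SE, 95% interval -0.77 to 0.51, adjusted p = 0.73 in the edgeR quasi-likelihood test). Its sign rested on single libraries, since it was 0.17 without SHP-KO replicate 3 and -0.65 without SHP-KO replicate 2, neither of them called.

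Slco2a1, which takes prostaglandins into cells, was modestly lower in SHP-KO. It had 780, 929 and 879 counts in SHP-KO and 1660, 1552 and 1603 counts in WT. The levels were 99.1, 101.5 and 100.6 CPM in SHP-KO and 121.1, 135.9 and 121.0 CPM in WT, with no overlap. The means of 100.4 ± 1.18 CPM in SHP-KO and 126.0 ± 8.58 CPM in WT (SD, n = 3 each) gave a log2 fold change of -0.32 ± 0.044 (SE, 95% interval -0.41 to -0.24). This 1.25-fold fall had an adjusted p of 3.6e-10 in the edgeR quasi-likelihood test. With an assumed coefficient of variation of 0.2 in the edgeR exact test it was not called (log2 fold change -0.33, adjusted p = 0.31).

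Slco2b1, the carrier of sulfated steroids and drugs, fell more than Slco2a1 in size, though the difference between the genes was not tested. It had 77, 59 and 72 counts in SHP-KO and 249, 222 and 237 counts in WT. The levels were 9.79, 6.45 and 8.24 CPM in SHP-KO and 18.2, 19.4 and 17.9 CPM in WT, so every WT library was above every SHP-KO library. With means of 8.16 ± 1.67 CPM in SHP-KO and 18.5 ± 0.83 CPM in WT (SD, n = 3 each), the log2 fold change was -1.19 ± 0.12 (SE, 95% interval -1.42 to -0.96). The 2.28-fold fall had an adjusted p of 1.9e-15 in the edgeR quasi-likelihood test, and leaving out any 1 library kept it between -1.34 and -1.04.

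Levels can be compared between genes only per length, here as CPM per kilobase of summed exons. In SHP-KO the order was Abcb1a (213.7), Abcg2 (65.6), Slco2a1 (24.9), Slco2b1 (1.64), Abcc1 (0.512), Abcc4 (0.247) and Abcb1b (0.0455). The order was the same in WT, with Abcb1a at 195.0, Abcg2 at 160.7, Slco2a1 at 31.2, Slco2b1 at 3.71, Abcc1 at 0.390, Abcc4 at 0.273 and Abcb1b at 0.0693 CPM per kilobase. Neighbours in the order were separate in every library of SHP-KO. In WT the ranges of Abcb1a (193.75 to 195.84) and Abcg2 (126.94 to 226.67) overlapped, because Abcg2 exceeded Abcb1a in WT replicate 2 alone.

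The authors' deposited table lists 6 of the 7 genes with log2 fold changes of SHP-KO over WT. In the authors' deposited table, Abcg2 stood at -1.31 (adjusted p = 7.5e-07, edgeR) and Slco2b1 at -1.20 (adjusted p = 4.6e-05, edgeR). The authors' deposited table gives Abcb1a at 0.11 (adjusted p = 0.76), Slco2a1 at -0.35 (adjusted p = 0.27), Abcc1 at 0.38 (adjusted p = 0.41) and Abcc4 at -0.15 (adjusted p = 0.85), all by edgeR. None of these is under 0.05. By contrast, Abcb1a (adjusted p = 4.3e-06) and Slco2a1 (adjusted p = 3.6e-10) were called in the edgeR quasi-likelihood test used here. Neither was called in the edgeR exact test with an assumed coefficient of variation of 0.2. The reason for the difference was not tested.

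For each gene the closest patterns were found over 11823 other genes with a mean of at least 1 CPM, as the root mean square distance between log2 CPM centred on each gene's mean over 6 libraries. Smurf1 lay closest to Abcb1a at 0.017, followed by Lypla2 and Rhpn2, against a median distance of 0.27 over all genes. Raly lay closest to Slco2a1 at 0.022, followed by Psma1 and Per1. Pank1 lay closest to Slco2b1 at 0.069, followed by Mad2l2 and Rdh16. For the low transcripts, AY761184 was closest to Abcc1 at 0.040 and Nrgn to Abcc4 at 0.11. The median distance differed by gene, at 0.28 for Slco2a1, 0.63 for Slco2b1, 0.34 for Abcc1 and 0.47 for Abcc4.

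Abcg2 had the largest distance to its nearest gene among the tested genes of the set, but also the largest median distance, 0.69. Aspg was nearest at 0.165, followed by Dlgap5 and Fam83f. Aspg had 7.25, 8.74 and 8.13 CPM in SHP-KO and 15.8, 22.2 and 17.6 CPM in WT, with its highest WT value also in replicate 2. Centred within each genotype, which removes the genotype difference, the nearest were Slc27a3 (0.073), Rsbn1 (0.088) and Wrb (0.088). All of these are at a few CPM, where counting error alone spreads libraries.

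The wider transporter family list held 35 other ABC and SLC genes, of which 17 were tested. Of these, 10 were higher in SHP-KO, 3 were lower and 4 were not called, with a median log2 fold change of 0.17 against -0.01 over all tested genes. The background was 35.2% of all tested genes called higher and 35.4% called lower. Among ABC genes, Abcc10 was higher at 51.7 ± 0.94 CPM in SHP-KO and 24.8 ± 1.64 CPM in WT (log2 fold change 1.06), and Abcc6 at 32.6 ± 2.99 CPM in SHP-KO and 17.2 ± 0.46 CPM in WT (0.92). Abcc2, the apical exporter of glucuronides and glutathione conjugates, had 264.1 CPM in SHP-KO and 259.2 CPM in WT. Its log2 fold change of 0.03 had a 95% interval of -0.037 to 0.091 (adjusted p = 0.46, edgeR quasi-likelihood test). Abcc5 had a log2 fold change of -0.13 and was not called.

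The other called genes of this list encode SLC carriers. Slc28a2, a concentrative nucleoside transporter, had 466 ± 18.7 CPM in SHP-KO and 332 ± 11.3 CPM in WT, and Slc47a1, a cation exporter, had 176 ± 11.1 CPM in SHP-KO and 118 ± 3.40 CPM in WT (log2 fold changes 0.49 and 0.57). Slc29a1 (0.95), Slc22a3 (0.64) and Slc22a21 (0.63) rose as well. The rises were smaller for Slc22a5, the carnitine transporter (0.17), Slc15a1, the peptide transporter (0.15), and Slc22a18 (0.14). Lower were Slco3a1 at 5.70 ± 0.65 CPM in SHP-KO and 16.7 ± 2.19 CPM in WT (log2 fold change -1.54), Slc22a23 (-0.54) and Slc22a4 (-0.22). Slco4a1 had a log2 fold change of 0.30 and was not called. Slco1a1, Slco1a5, Slco1a6, Slc22a2, Slc22a6, Slc22a7 and Slc22a8 had no count in any library.

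**Figure D4:**
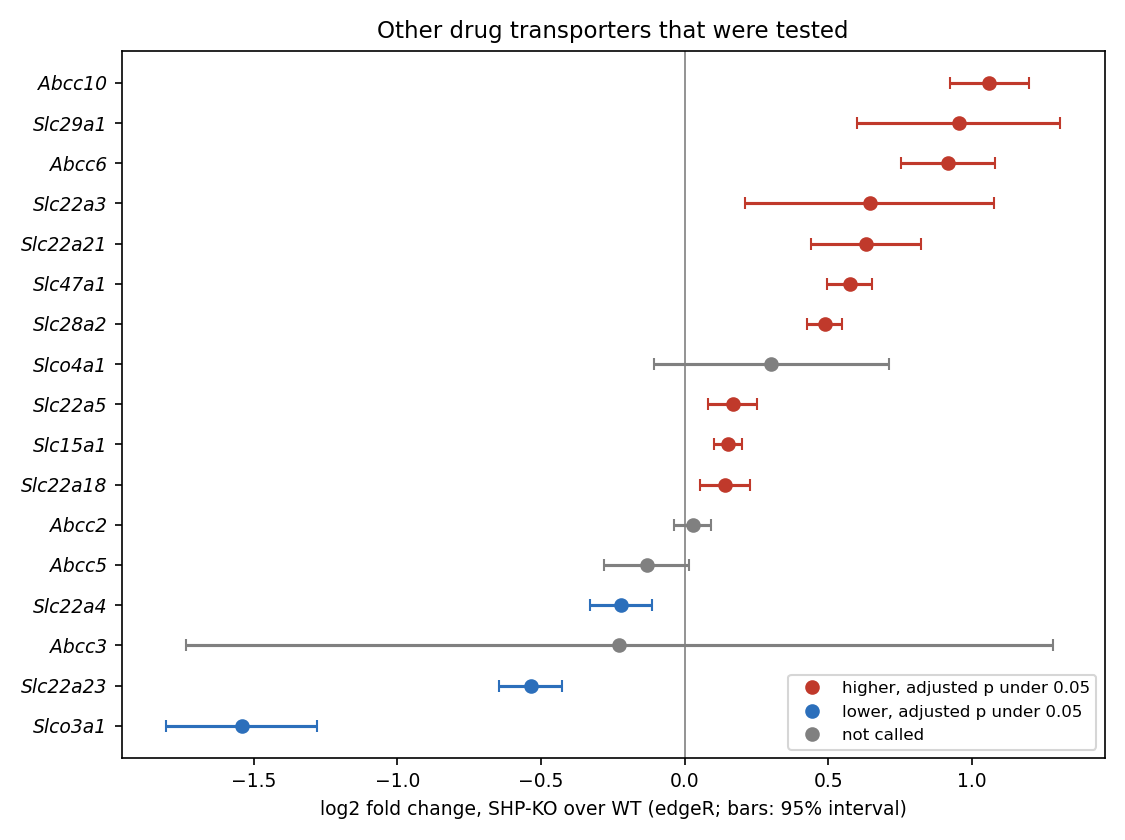
Log2 fold change of SHP-KO over WT (edgeR, bars for the 95% interval) for the 17 tested genes among the other ABC and SLC drug transporters, in red where higher, blue where lower and grey where not called at an adjusted p under 0.05. Abcc10 (1.06) and Slco3a1 (-1.54) are at the ends, and Abcc3 has the widest interval.

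Genes of the substrates these carriers handle were counted by list, with the 4 most abundant of each named. Each count stands beside a background of 35.2% of all tested genes higher and 35.4% lower. Of 13 tested prostaglandin genes, 6 were higher, 1 was lower and 6 were not called (median log2 fold change 0.37). The lower gene was Hpgd, the dehydrogenase that inactivates prostaglandins after uptake, at 208.7 ± 4.86 CPM in SHP-KO and 654.7 ± 16.5 CPM in WT (log2 fold change -1.65). Cbr1 (0.37) and Ptgr1 (0.12) were higher, and Ptger4 (0.03) was not called. Of 12 genes of glutathione and leukotriene C4 supply, 5 were higher, 3 lower and 4 not called (median 0.13). Gss, glutathione synthetase, had 332 ± 29.3 CPM in SHP-KO and 145 ± 1.65 CPM in WT (1.20), Ggt1 (0.43) and Lta4h (0.24) were higher, and Dpep1 was lower (-0.69). Of 7 urate genes, 2 were higher, 4 lower and 1 not called (median -0.21), with Ada (2.15) and Xdh (0.69) higher, Pdzk1 lower (-0.36) and Pnp (0.01) not called.

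Of 18 genes that sense xenobiotics or control transporter transcription, 4 were higher, 10 lower and 4 not called (median log2 fold change -0.26), Nr0b2 being among the lower. Over all tested genes, 70.6% were called, 35.2% higher and 35.4% lower. Hnf4a, a regulator of enterocyte genes, had 494 ± 4.34 CPM in SHP-KO and 808 ± 13.4 CPM in WT (log2 fold change -0.71), and Rxra (-0.51) and Vdr (-0.30) were lower too, while Nfe2l2 was higher (0.44). The xenobiotic receptors Nr1i2 (PXR) and Nr1i3 (CAR), picked after their values were seen, differed in direction. Nr1i2 had 117 ± 3.98 CPM in SHP-KO and 166 ± 1.19 CPM in WT, and Nr1i3 had 71.3 ± 2.08 CPM in SHP-KO and 12.1 ± 1.21 CPM in WT (log2 fold changes -0.50 and 2.55). Of 9 brush border anchors, 4 were higher, 4 lower and 1 not called (median 0.07), among them Vil1 (0.14), Myo1a (0.07), Slc9a3r1 (-0.08) and Ezr (-0.29).

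Markers of intestinal segments and of other cell types moved with genotype as well, and their part in the transporter results was not tested. Their counts stand beside 35.2% of all tested genes called higher and 35.4% called lower. Proximal small intestine markers summed to 34425 to 34748 CPM in SHP-KO and 7925 to 8024 CPM in WT, with 11 of 12 higher and 1 lower (Apoa4 2.42, Npc1l1 1.03). Ileum markers summed to 8508 to 8711 CPM in SHP-KO and 26804 to 27082 CPM in WT, with 5 of 16 higher and 11 lower (Fabp6 -6.22, Clec2h -0.68). Single genes weighed heavily in the sums of both segments. Apoa4 had a mean of 18835 CPM in SHP-KO and 3521 CPM in WT, and Fabp6 had 144 CPM in SHP-KO and 10779 CPM in WT. Epithelial markers summed to 23459 to 23483 CPM in SHP-KO and 24053 to 24232 CPM in WT, with 3 of 10 higher and 6 lower (Krt20 0.17, Krt8 -0.12).

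Blood endothelium markers summed to 26.8 to 29.8 CPM in SHP-KO and 15.8 to 19.2 CPM in WT, with 6 of 8 tested markers higher and 1 lower (Pecam1 0.11, not called, and Plvap 0.86). Smooth muscle markers were higher in 16 of 16, with a median log2 fold change of 2.11, and summed to 2363 to 2412 CPM in SHP-KO and 831 to 857 CPM in WT (the most abundant, Tpm1 and Mylk, at 0.76 and 0.97, lay below the median). Fibroblast markers were higher in 10 of 12 (median 1.31, Fbln1 1.08, Sparc 1.51) and summed to 365 to 377 CPM in SHP-KO and 159 to 176 CPM in WT. Adipocyte markers were higher in 6 of 6 (median 2.85, Cidec 0.25, Fabp4 2.92) and summed to 164 to 174 CPM in SHP-KO and 118 to 122 CPM in WT. Most of these sums was Cidec, at 137.5 CPM in SHP-KO and 116.0 CPM in WT, whose change lay below the median. Goblet cell markers were higher in 7 of 7 (median 1.54, Zg16 1.60, Fcgbp 1.54) and summed to 7467 to 7596 CPM in SHP-KO and 2606 to 2685 CPM in WT. Enteric neuron and glia markers were higher in 7 of 8 (median 2.28, Prph 2.05) and lower in 1 (Ret -0.34), and summed to 53.8 to 54.6 CPM in SHP-KO and 16.8 to 20.1 CPM in WT. T cell markers were higher in 9 of 11 (median 0.68, Gzma 0.68, Ccl5 0.85) and lower in 1, and macrophage and dendritic cell markers were split, 3 of 10 higher and 3 lower (Lyz2 -2.56, C1qa -0.11, not called). B cell markers were lower in 10 of 10, summing to 1.49 to 2.54 CPM in SHP-KO and 90.2 to 98.0 CPM in WT (Cd79a -5.30, Cd79b -5.27), with Cr2, Fcer2a and Faim3 at 0 in SHP-KO. Lymphatic endothelium and mast cells each had 1 tested marker, Lyve1 (-0.19) and Kit (-0.29), neither called, and Ccl21a was at 0 in both genotypes.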

How the data were processed

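The files hold whole-number counts of reads per gene, which the authors deposited for each library. Per the file headers, they were made with featureCounts 1.5.2, unstranded, over exons by gene, so reads of antisense genes cannot be told apart. STAR 2.6.0c, Trimmomatic 0.38, FastQC 0.11.5, bcl2fastq 2.17.1.14, edgeR and the mm9 build are named in the submitters' processing notes. The authors' deposited comparison gives, for each gene, log2 values (fold change and mean CPM) and p-values, raw and adjusted.

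Counts were scaled by TMM, filtered with filterByExpr (minimum count 10) and tested with edgeR 4.0.16 (quasi-likelihood, robust) in R 4.3.3. Benjamini-Hochberg adjustment ran over all 12106 tested genes, and calls are at 0.05. Alternatives used limma 3.58.1, DESeq2 1.42.0, other scalings and filters, the exact test, the replicate number as a block, and leaving out each library. A further setting summed the counts of Abcb1a and Abcb1b. Members and lists were chosen with earlier results of these data known. Named genes are the 7 members, every tested transporter of the wider list, up to 4 of the most abundant genes of each other list, 2 of each marker list, Nr0b2 and the 3 genes nearest to each member (for Abcg2 also within genotype). Genes found by their distance in WT replicate 2, Nr1i2 and Nr1i3, and genes named for having no counts were chosen after their values were seen. A gene that the rule takes is not reported here.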

Additional observations from a re-analysis of the deposited data

How the results depend on the processing

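Totals of 7956528 to 13511800 counts limited Abcb1b, Abcc1 and Abcc4, which had at most 31 counts in a library, and 3 libraries a genotype limit every test. Of 96 values of single genes under the alternatives, 90 kept their direction and side of the threshold, 5 lost the call and 1 changed sign (Abcc4, which ran between -0.65 and 0.17 when 1 library was left out). The 90 include the setting with Abcb1a and Abcb1b summed. It left the other genes' counts as they were, so their unchanged values there show nothing. The exact test with an assumed coefficient of variation of 0.2 called 4041 of all genes (8543 in the edgeR quasi-likelihood test), 4 other transporters higher (10) and 1 lower (3). It called 0 of the 7 genes higher (1), also 0 at an unadjusted p under 0.05, while DESeq2 and limma-voom each called 1. With no filter on low counts, 5 other transporters were lower (3), and Abcb1b had a log2 fold change of -0.71 (adjusted p = 0.50, edgeR quasi-likelihood test). Leaving out 1 library at a time left 1 of the 7 genes called higher each time and 2 to 3 lower, and gave 8260 to 8407 of all genes called, 9 to 11 other transporters higher and 3 to 4 lower, and a difference in Abcb1b share of -0.0235 to -0.00531 percentage points. Same-numbered libraries of the genotypes showed no clear shared deviation (r = -0.006 to 0.021, 2 of 3 closest to their own number). With 3 libraries a genotype, this cannot decide whether the numbers pair them. With the replicate number as a block 8573 genes were called, Abcg2 standing at -1.26 (adjusted p = 0.042, edgeR quasi-likelihood test). The cause of these changes was not tested.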
